A study of Mus musculus with 40 samples.

Results

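CD11b+ myeloid cells from GL261 gliomas of mice that had received either of a pair of 7-amino-acid peptides were compared with the same cells from vehicle-treated mice, to look for transcripts that differed with both peptides. All 9 samples carrying these labels in the GL261 experiment were taken, 3 from 7aaRGD-treated, 3 from 7aaRAE-treated and 3 from vehicle-treated animals, of 40 samples in the series. The 6 peptide samples were treated as 1 group. All animals were male C57BL/6 mice, 10 to 12 weeks old, that carried tdTomato+luc+ GL261 cells, a mouse glioma line, in the right striatum. An osmotic pump delivered 2 mg/ml peptide or water into the tumor, and cells were sorted from the tumor-bearing hemisphere at 21 days post-implantation (DPI). Each sample pooled the cells of 2 animals, so that 3 samples per group stand for 6 mice. A further 3 samples from tumor-free (naive) brains of the same experiment gave reference levels.

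7aaRGD carries the arginine-glycine-aspartate motif through which αvβ3 and αvβ5 integrins bind secreted proteins such as osteopontin and MFG-E8, and 7aaRAE carries RAE in place of that motif. Glioma cells release both proteins, and integrin signaling in microglia and infiltrating macrophages is one of the routes by which these cells take up a tumor-supportive state marked by arginase-1 and other products of alternative activation. The pooled comparison asks which transcripts differed from vehicle whichever of the peptides was given.

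Expression was given as RPKM, read counts scaled to the length of the transcript and to the reads mapped in the sample, and groups were compared on the log2(RPKM + 1) scale, which understates the difference of weakly expressed genes. Sequencing depth was not recoverable from these values. Transcripts of the sorted population were abundant in all 9 samples, with *Csf1r* between 714 and 888 RPKM and *Itgam*, which encodes CD11b, at a log2 difference of 0.096 (SE 0.078) between the peptide and vehicle samples. *Tmem119* and *P2ry12* (resident microglia) and *Ly6c2* and *Ccr2* (recruited monocytes) were all present, whereas *Ly6g*, *Aqp4* and *Snap25* were at or below 0.226 RPKM in every one of them. The 3 vehicle samples did not lie together. On the first principal component of the 9440 genes tested, which held 38.7% of the variance, vehicle samples 1 and 2 lay at -15.5 and -14.1, while vehicle sample 3 lay at 3.37, within the range of the peptide samples (-2.63 to 11.3). By mean correlation with the other 8 samples, vehicle samples 1 and 2 were the lowest of the 9, at 0.9893 and 0.9895, against 0.9932 for vehicle sample 3. Peptide samples outnumber vehicle samples, so a difference between the groups would itself lower this measure in vehicle samples. Because the vehicle samples did not lie together, genes of alternative activation are given with and without vehicle sample 3. In parentheses after the median of a gene list stand the lowest and highest medians over the alternatives, with the sample left out or the setting that gave them.

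No gene passed the test between the pooled peptide samples and vehicle. Testing was limited to 9440 protein-coding genes whose mean over the 9 samples reached 1 RPKM, of which 0 (0%) were higher and 0 (0%) lower at an adjusted p under 0.05 (limma with Benjamini-Hochberg adjustment), and the smallest adjusted p was 0.342. Before adjustment, 686 genes (7.27%) were higher and 472 (5%) lower at p under 0.05. The 6 peptide samples lay all above the 3 vehicle samples for 263 genes (2.79%) and all below them for 155 (1.64%). The median log2 difference over all genes was 0.014, and 55.6% of genes had a higher mean with peptide. The genes described next are therefore given as values, not as changes.

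Among the 263 genes whose groups did not overlap upwards, the 12 with the smallest unadjusted p were *Lman2l*, *Coro2a*, *Gm1673*, *Asap3*, *Nlrp3*, *Tnfsf8*, *Rasgef1b*, *Dyrk4*, *Spib*, *Cass4*, *Zhx2* and *Mmp2*. *Nlrp3*, the sensor of the inflammasome that matures IL-1β (chr11:59541568-59566956, mm10), was measured at 21.4, 18.3 and 23.4 RPKM in vehicle samples 1 to 3, at 27.9, 29.6 and 26.3 in the 7aaRGD samples and at 27.1, 28.4 and 24.6 in the 7aaRAE samples. All 6 peptide samples exceeded the highest vehicle sample, and the log2 difference was 0.37 (SE 0.079) with an adjusted p of 0.342 in the limma fit. *Tnfsf8*, which encodes the ligand of CD30, gave 2.54, 1.87 and 2.85 RPKM with vehicle, 4.27, 4.11 and 4.2 with 7aaRGD and 3.38, 3.44 and 3.18 with 7aaRAE. Here the 3 7aaRGD samples also lay above all 7aaRAE samples, and the pooled log2 difference was 0.48 (SE 0.11). *Mmp2* (gelatinase A, a secreted protease of the extracellular matrix) gave 7.58, 6.72 and 6.42 RPKM with vehicle against 7.69 to 10.7 across the peptide samples, a log2 difference of 0.38 (SE 0.087).

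The other genes of this group included cytoskeletal proteins, signaling proteins and transcription factors. *Coro2a*, an actin-binding coronin, gave 17.3 to 19.9 RPKM with vehicle and 21.8 to 26.2 with peptide, at a log2 difference of 0.33. *Cass4*, a focal adhesion scaffold of the Cas family, gave 3.93 to 3.96 RPKM in vehicle and lay between 4.47 and 5.25 RPKM with peptide. *Asap3*, an Arf GTPase-activating protein, and *Rasgef1b*, an exchange factor for Ras-family proteins, had log2 differences of 0.39 and 0.33. *Lman2l* (an endoplasmic reticulum cargo lectin) gave 5.05, 4.86 and 5.05 RPKM with vehicle and 5.68 to 6.4 with peptide. All peptide samples lay above vehicle, at a log2 difference of 0.25 (SE 0.045). The remaining 4 genes were weakly expressed. *Gm1673*, *Spib* (an Ets-family transcription factor of B cells and plasmacytoid dendritic cells), *Dyrk4* (a kinase) and *Zhx2* (a zinc-finger and homeobox repressor) had means of 0.896, 1.14, 0.969 and 1.75 RPKM with vehicle and log2 differences of 0.60, 0.38, 0.35 and 0.27. *Gm1673* and *Dyrk4* had vehicle means under 1 RPKM, and so passed the filter through their peptide samples. An exact permutation test of 3 against 6 samples cannot give a p under 0.0238, and choosing genes without overlap fixes that value, so it is not a test of these genes.

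**Figure D1:**
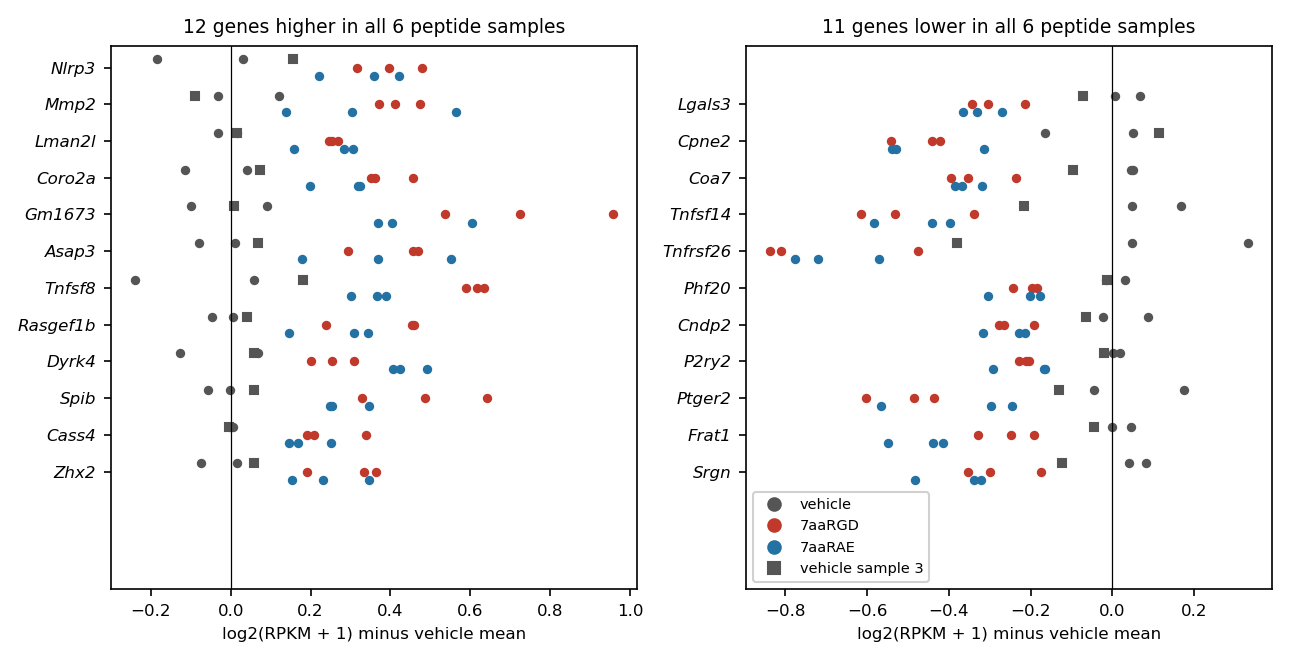
Expression in each of the 9 samples, as log2(RPKM + 1) minus the vehicle mean, of the 12 genes with the smallest unadjusted p among those whose 6 peptide samples lay all above (left) or all below (right, 11 of the 12 shown) the vehicle samples. Each point is 1 sample pooled from 2 mice, squares mark vehicle sample 3, and the panels run from -0.84 (*Tnfrsf26*) to 0.96 (*Gm1673*).

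The 12 corresponding genes below vehicle included genes that are abundant in macrophages. *Lgals3*, encoding the secreted lectin galectin-3 (chr14:47367751-47386160), was measured at 469, 489.6 and 445 RPKM in the vehicle samples, 378, 368 and 403 in the 7aaRGD samples and 363, 371 and 388 in the 7aaRAE samples, against a mean of 6.93 RPKM in naive brains. The lowest vehicle value exceeded the highest peptide value by about as much as the peptide samples spanned, and the log2 difference was -0.31 (SE 0.055). *Srgn*, the proteoglycan core serglycin of secretory granules, gave 398, 387 and 346 RPKM with vehicle and 269 to 333 with peptide.

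A further group encoded signaling receptors and ligands. *Tnfsf14* (LIGHT) was at 8.3, 9.11 and 6.74 RPKM with vehicle and 4.87 to 6.12 with peptide, a log2 difference of -0.48 (SE 0.089). *Ptger2*, the EP2 receptor for prostaglandin E2, and *P2ry2*, a receptor for extracellular ATP and UTP, gave 2.53 to 3.37 and 3.28 to 3.4 RPKM with vehicle against 1.55 to 2.26 and 2.54 to 2.87 with peptide. *Tnfrsf26*, a member of the TNF receptor family, had the largest log2 difference of the 24 genes, -0.70 (SE 0.14), at a vehicle mean of 2.14 RPKM. *Cpne2*, a calcium-dependent phospholipid-binding copine (chr8:94532990-94570531), had the smallest unadjusted p of all genes, 6.71e-05, with 14.9, 12.7 and 15.6 RPKM in vehicle, 10.3, 9.52 and 10.4 in 7aaRGD and 9.6, 11.3 and 9.54 in 7aaRAE samples. *Coa7* (cytochrome c oxidase assembly), *Cndp2* (a cytosolic dipeptidase), *Phf20* (a subunit of a histone acetyltransferase complex) and *Frat1* (an inhibitor of GSK-3) completed the group at log2 differences of -0.34, -0.25, -0.22 and -0.36.

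Products of alternative macrophage activation had wide differences in means, and these rested on vehicle samples 1 and 2. *Arg1* (chr10:24915221-24927484), which encodes the arginine-consuming enzyme arginase-1, was measured at 845, 1224 and 201 RPKM in vehicle samples 1 to 3, 95.6, 122 and 201 in the 7aaRGD samples and 204, 243 and 265 in the 7aaRAE samples. *Chil3*, a secreted chitinase-like protein, gave 709.6, 943 and 187 RPKM with vehicle, 114, 176 and 228 with 7aaRGD and 185, 165 and 153 with 7aaRAE. *Mrc1*, the mannose receptor CD206, gave 99.5, 65.9 and 12.5 RPKM with vehicle and 8.31 to 25.1 with peptide. For all 3 genes, vehicle samples 1 and 2 lay above every peptide sample and vehicle sample 3 lay within the peptide range. With all 9 samples, the log2 differences were -1.74 (SE 0.51), -1.58 (SE 0.42) and -1.52 (SE 0.55), with adjusted p of 0.342, 0.342 and 0.352 in limma. Without vehicle sample 3 they were -2.52 (SE 0.36), -2.29 (SE 0.21) and -2.38 (SE 0.35), with adjusted p of 0.0354, 0.00502 and 0.0354 in limma. Vehicle sample 3 was singled out from these same data, so the fit without it is a description and not a test of these genes.

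The same arrangement of samples was present in 2 chemokines and in PD-L2. *Ccl8* (a CC chemokine) gave 598, 236 and 28 RPKM with vehicle, 5.15, 8.08 and 15.9 with 7aaRGD and 8.91, 5.08 and 51 with 7aaRAE. *Ccl24*, an eosinophil attractant made by alternatively activated macrophages, gave 236, 427 and 6.28 RPKM with vehicle, 3.34, 9.37 and 29 with 7aaRGD and 13.4, 7.25 and 16.5 with 7aaRAE. *Pdcd1lg2*, which encodes the PD-1 ligand PD-L2, gave 51.7, 95.5 and 16.6 RPKM with vehicle and 11.5 to 23.5 with peptide. Vehicle samples 1 and 2 exceeded all peptide samples in each of these genes, while vehicle sample 3 was below at least 1 peptide sample. Their log2 differences over 9 samples were -3.74, -2.93 and -1.18, against -4.97, -4.74 and -1.86 without vehicle sample 3. In naive brains, *Arg1* was at or below 0.11 RPKM and *Chil3* at or below 12.1 RPKM, but *Mrc1* was at 22.7, 32 and 33.3 RPKM, above all peptide samples but 1.

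**Figure D2:**
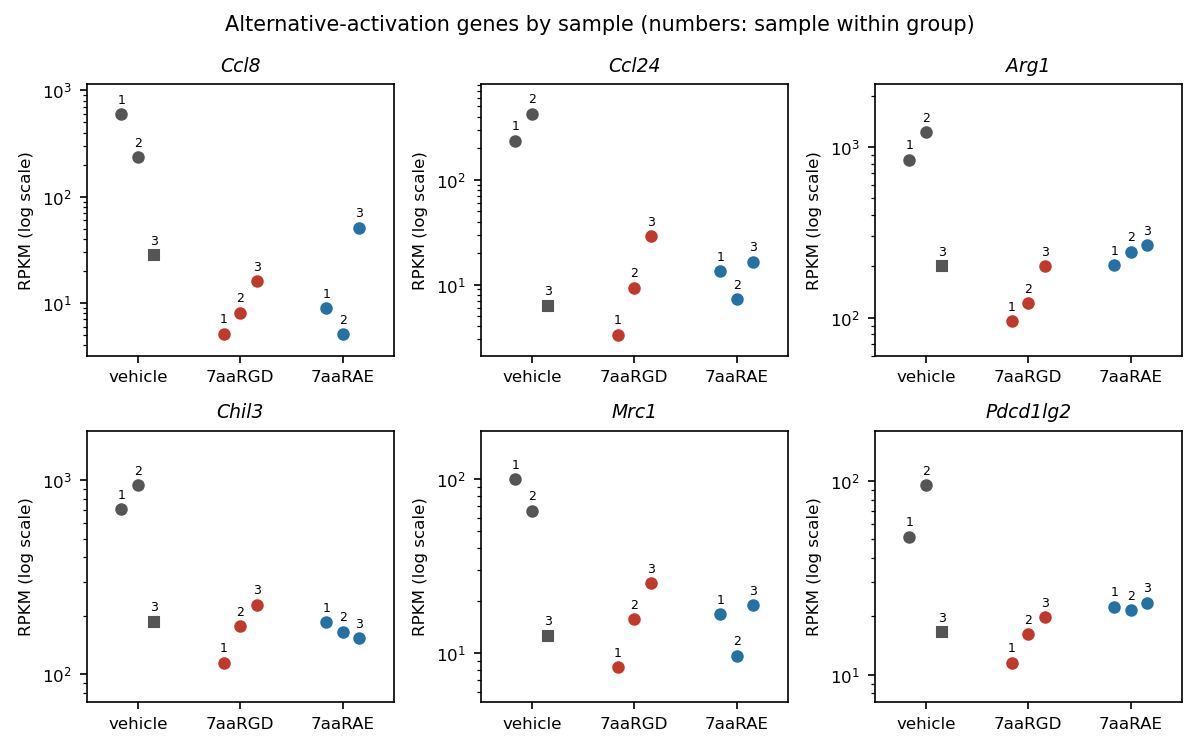
RPKM on a log scale of 6 genes of alternative activation in the 9 samples, numbered within each group, with vehicle sample 3 as a square. Vehicle samples 1 and 2 lie above every peptide sample in all 6 panels, and vehicle sample 3 lies among the peptide samples (for *Arg1*, 201 RPKM against 95.6 to 265).

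Of the 22 listed genes of alternative activation and immunosuppression, 18 were tested, 8 with higher and 10 with lower means. At an unadjusted p under 0.05, 0 were higher and 7 lower, against 5% of all genes lower, and the list median was -0.084 (-0.21 without 7aaRAE sample 2 to -0.0010 without vehicle sample 2) against 0.014 for all genes. Without vehicle sample 3 it was -0.20. *Il4ra*, the IL-4 receptor α chain, was the 1 member whose groups did not overlap (1.64% of all genes lay below vehicle without overlap). It gave 118, 119 and 126 RPKM with vehicle, including vehicle sample 3, and 97.1 to 109 with peptide. *Tgm2* (transglutaminase 2) had a log2 difference of -0.51. Other members did not share this direction, among them *Il1rn* at 0.28, *Ccl22* at 0.34 and *Cd274* (PD-L1) at 0.041.

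Without vehicle sample 3, 9457 genes were tested, of which 7 (0.0740%) were higher and 39 (0.412%) lower at an adjusted p under 0.05 in limma. Leaving out any other single sample gave 0 in both directions. Because vehicle sample 3 was singled out from these same data, the calls without it describe the samples kept and are not a test. The 39 lower genes held, beside those above, *Atp6v0d2* (a proton pump subunit of fused macrophages), *F7* (coagulation factor VII), *Cdh1* (E-cadherin), *Pecam1*, *Fcgr2b* (the inhibitory Fc receptor), *Gatm* (creatine synthesis), *Cebpa* and *Ahr* (transcription factors). *Pecam1*, an adhesion molecule shared by leukocytes and endothelium, gave 16.5, 19.1 and 8.8 RPKM with vehicle and 5.31 to 9.05 with peptide, at log2 differences of -0.92 with and -1.23 without vehicle sample 3. *F7* gave 53.6, 58.3 and 14.2 RPKM with vehicle against 12 to 26.9 with peptide. The 7 higher genes were the pattern receptor *Tlr2*, the lectin *Clec4e*, *Slamf9*, *Trem3*, *Tmem263*, and *Pilrb1* and *Pilrb2*, a pair of closely related receptor genes between which reads may be split. *Tlr2* gave 165, 180.2 and 219.8 RPKM with vehicle and 214 to 249.6 with peptide, and its log2 difference was 0.45 without and 0.34 with vehicle sample 3. *Coa7*, *Tnfsf14* and *Tnfrsf26* were the 3 of the 24 leading genes past the threshold in these 8 samples.

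Heat shock chaperones refold damaged proteins, and many are transcribed through heat shock factor 1. The list was mostly cytosolic but also held the mitochondrial chaperonins *Hspd1* and *Hspe1*. Of 24 members 22 were tested, 21 with a higher mean in the peptide samples, 15 of them at p under 0.05 and 0 lower at that level, and the list median was 0.33 (0.25 without 7aaRGD sample 2 to 0.36 without 7aaRGD sample 3). Over all genes, 55.6% had a higher mean, 7.27% were higher at that p and 2.79% were above vehicle without overlap. None passed after adjustment. The 3 members whose samples did not overlap were *Hsp90ab1*, *Hspa8* and *Hspd1*. *Hsp90ab1*, the constitutive cytosolic HSP90, gave 438, 407 and 415 RPKM with vehicle, 581, 687 and 470.0 with 7aaRGD and 523, 481 and 512 with 7aaRAE. *Hspa8*, the constitutive HSP70, gave 469, 476 and 447 RPKM with vehicle and 491 to 687 with peptide. The mitochondrial chaperonin *Hspd1* gave 36.7, 33.7 and 34.5 RPKM with vehicle and 38.1 to 57.4 with peptide. All 3 were highest in 7aaRGD sample 2.

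The stress-inducible members had larger and more variable differences. *Hspa1a* (chr17:34969190-34972156), inducible HSP70, gave 4.6, 3.79 and 4.66 RPKM with vehicle, 11, 18.2 and 4.05 with 7aaRGD and 6.8, 10.1 and 6.45 with 7aaRAE, so that 7aaRGD sample 3 lay inside the vehicle range. *Hspa1b*, a near-identical copy whose reads cannot be fully separated from those of *Hspa1a*, also had 7aaRGD sample 3 within the vehicle range, and their log2 differences were 0.84 (SE 0.33) for *Hspa1a* and 0.85 (SE 0.42) for *Hspa1b*. *Hsph1* (HSP110, a nucleotide exchange factor for HSP70) gave 7.9, 4.8 and 5.03 RPKM with vehicle and 7.02 to 18.7 with peptide. *Hsp90aa1* gave 50.4, 38.6 and 46.6 RPKM with vehicle and 48.4 to 92.7 with peptide. The inducible genes were not low in tumor-free brains, where *Hspa1a* was at 6.3, 14.9 and 14.5 RPKM. The list median per sample, relative to the vehicle mean, spanned -0.045 to 0.071 in vehicle and 0.085 to 0.68 with peptide.

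To show a regulatory sequence known from this class of genes, the 250 bases before the RefSeq transcription start (GRCm38.p6) were searched for GAANNTTC, the paired unit of the heat shock element, which reads the same on both strands. It was present in 6 of 16 tested chaperone genes with a RefSeq window (37.5%) and in 6.14% of the 7589 tested genes with a window. *Hspd1* and *Hspe1* lie head to head and share the match, and 10 of the 16 genes lacked it. The windows of *Hspa1a* (chr17:34972157-34972406, minus strand) and *Hspd1* (chr1:55087933-55088182, minus strand) are shown 5′ to 3′ with the match in capitals, for an inducible gene with a wide spread and a gene whose groups did not overlap.
Hspa1a: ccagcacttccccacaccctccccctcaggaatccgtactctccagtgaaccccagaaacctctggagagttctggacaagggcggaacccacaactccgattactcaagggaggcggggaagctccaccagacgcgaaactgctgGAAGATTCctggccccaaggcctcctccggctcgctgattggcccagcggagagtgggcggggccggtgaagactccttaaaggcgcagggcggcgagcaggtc
Hspd1: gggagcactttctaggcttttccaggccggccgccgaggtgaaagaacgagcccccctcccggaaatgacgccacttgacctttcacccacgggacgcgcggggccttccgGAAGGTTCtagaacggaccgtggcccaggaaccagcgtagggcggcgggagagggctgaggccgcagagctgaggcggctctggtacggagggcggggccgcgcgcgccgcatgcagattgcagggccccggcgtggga

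Chaperones of the endoplasmic reticulum, which are controlled separately by the unfolded protein response, had smaller differences. Of 20 genes of endoplasmic reticulum stress, 19 had a higher mean, 6 at an unadjusted p under 0.05 (7.27% of all genes), at a list median of 0.14 (0.12 with a pseudocount of 5 to 0.17 at a mean of at least 5 RPKM). *Chac1*, 1 of the 19, was near the filter at a 9-sample mean of 1.02 RPKM, where genes higher with peptide passed more readily. *Hspa5* (BiP), *Hsp90b1* (GRP94) and *Sdf2l1* were the 3 members without overlap (2.79% of all genes). *Sdf2l1*, a cofactor of BiP, gave 87.4, 93.6 and 85.5 RPKM with vehicle, 107, 117 and 109 with 7aaRGD and 115, 94.9 and 102 with 7aaRAE. *Hyou1* and *Creld2*, other luminal folding factors, had log2 differences of 0.28 and 0.33, whereas *Xbp1* and *Ddit3* (CHOP), transcription factors of the response, were at 0.026 and 0.15.

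**Figure D3:**
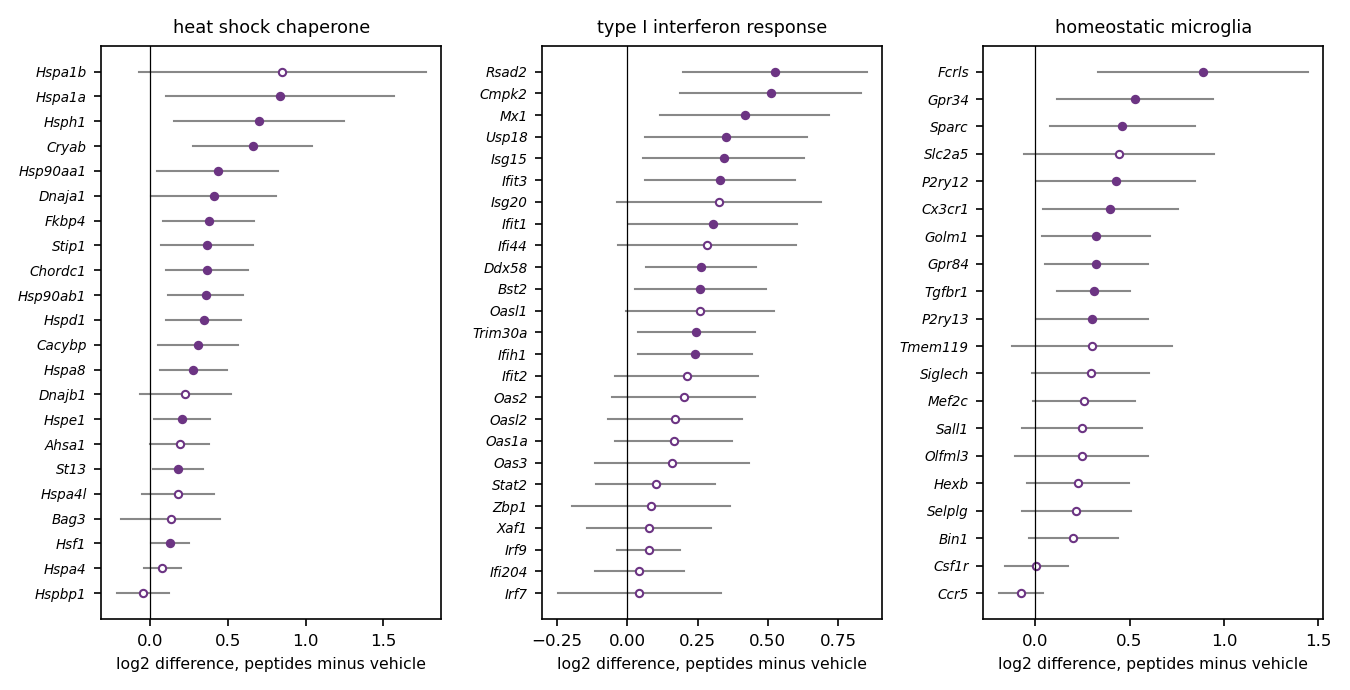
Log2 difference (peptide minus vehicle, on the log2(RPKM + 1) scale, with its 95% confidence interval) of the tested members of 3 lists, except 1 interferon gene that is not shown. Filled points have an unadjusted p under 0.05 (15 of 22 chaperones, 11 of 26 interferon genes, 9 of 20 microglial genes), and none passed the adjusted threshold.

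Type I interferon-stimulated genes, the antiviral program downstream of the type I interferon receptor, had higher means for all 26 tested members, of 28 listed. For 11 the unadjusted p was under 0.05 (7.27% of all genes), and the median was 0.24 (0.16 without vehicle sample 1 to 0.30 without vehicle sample 3), yet no member separated the 6 peptide from the 3 vehicle samples (0 of 26, against 2.79% of all genes). *Rsad2* (viperin) gave 62.1, 65.2 and 82.6 RPKM with vehicle, 115, 115 and 88.7 with 7aaRGD and 103, 74.3 and 114 with 7aaRAE. Only 7aaRAE sample 2 fell inside the vehicle range, and this sample was also the lowest peptide sample for *Cmpk2*, *Mx1* and *Usp18*. Their log2 differences were 0.53 (SE 0.15), 0.51 (SE 0.14), 0.42 (SE 0.14) and 0.35 (SE 0.13). *Irf7* and *Irf9*, transcription factors of this program, were at 0.043 and 0.076. The list median by sample ran from -0.18 to 0.15 in vehicle and from 0.0081 to 0.44 with peptide. All these levels were far above those in naive brains, where the summed level of the list was 162 to 169.8 RPKM against 2420.5 to 3067 with vehicle.

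The core of the interferon-stimulated response element, searched on both strands as GAAA and a second GAAA with any 2 bases between them, was present before the start of 9 of 20 tested interferon genes with a window (45%) and of 3.72% of tested genes. The windows of *Rsad2* (chr12:26456453-26456702, minus strand), the member with the largest difference (its match reads on the opposite strand), and of *Isg15* (chr4:156200819-156201068, minus strand), which held 3 overlapping matches, are given in the same form.
Rsad2: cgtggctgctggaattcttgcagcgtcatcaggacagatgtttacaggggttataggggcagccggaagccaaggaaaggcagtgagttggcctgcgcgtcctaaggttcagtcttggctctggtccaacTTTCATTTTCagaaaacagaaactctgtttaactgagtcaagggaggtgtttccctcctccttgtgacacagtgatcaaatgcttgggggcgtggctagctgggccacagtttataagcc
Isg15: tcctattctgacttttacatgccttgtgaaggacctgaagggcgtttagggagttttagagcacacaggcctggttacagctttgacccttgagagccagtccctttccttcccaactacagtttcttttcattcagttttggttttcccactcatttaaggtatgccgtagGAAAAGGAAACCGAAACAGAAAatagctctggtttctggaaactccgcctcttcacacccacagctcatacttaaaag

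Inflammatory cytokine genes had higher means in 15 of 16 tested members, 4 being higher and 1 lower at an unadjusted p under 0.05 (7.27% and 5% of all genes), at a median of 0.21 (0.15 with a pseudocount of 5 to 0.27 with a pseudocount of 0.1). *Il12b*, 1 of the 15, was near the filter at a 9-sample mean of 1.14 RPKM, where genes higher with peptide passed more readily. *Il1b* gave 446, 439 and 473 RPKM with vehicle, 653, 701 and 470.2 with 7aaRGD and 544, 716 and 608 with 7aaRAE, with 7aaRGD sample 3 at the level of the vehicle samples. *Il1a* gave 20.02 to 26 RPKM with vehicle and 24.6 to 44.9 with peptide. *Il18bp*, a secreted inhibitor of IL-18, was the lower member, at 40.9, 69.1 and 66.9 RPKM with vehicle and 34.1 to 46.7 with peptide. Among 19 tested chemokines, *Cxcl10*, which attracts activated T cells, gave 207, 212 and 295 RPKM with vehicle and 245 to 473 with peptide, at a log2 difference of 0.62 (SE 0.19), and *Cxcl14* was at 0.53. The chemokine median was 0.032 (0.017 without 7aaRGD sample 3 to 0.19 without vehicle sample 1), with 2 members higher and 2 lower at p under 0.05. Of 20 interferon-γ response genes, 15 had a higher mean, with a median of 0.062 (-0.16 without vehicle sample 1 to 0.19 without vehicle sample 2). Against the shared vehicle samples, 11 of 20 were higher with 7aaRGD (median 0.018) and 18 of 20 with 7aaRAE (median 0.15).

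Homeostatic microglial genes are expressed by resident microglia, and most, though not all of those listed, decline as these cells react to a tumor. Their means were higher in 19 of 20 members, 9 at an unadjusted p under 0.05 (7.27% of all genes), with a median of 0.30 (0.16 without vehicle sample 2 to 0.41 without vehicle sample 3). *Fcrls*, an Fc receptor-like gene of mouse microglia (chr3:87250758-87263738), gave 106, 48.4 and 86.6 RPKM with vehicle, 169, 161 and 198 with 7aaRGD and 104, 120.3 and 124 with 7aaRAE, at a log2 difference of 0.89 (SE 0.25). One 7aaRAE sample lay inside the vehicle range and all 7aaRGD samples lay above it. *P2ry12*, the ADP receptor of microglial processes, gave 111, 75.1 and 125 RPKM with vehicle, 156, 127 and 178 with 7aaRGD and 126, 99.9 and 147 with 7aaRAE. *Tmem119* gave 246, 155 and 255 RPKM with vehicle and 184 to 339.8 with peptide, and *Cx3cr1*, the fractalkine receptor, gave 251, 166 and 248 and 230.4 to 372. In each of them vehicle sample 2 was the lowest of the 9. *Tgfbr1*, a receptor for the TGF-β that maintains microglia, was the 1 member without overlap (2.79% of all genes lay above vehicle without overlap). It gave 59.9 to 82.3 RPKM with vehicle and 82.9 to 92.3 with peptide. Summed over the list, peptide samples held 3171 to 4499 RPKM, vehicle samples 2636 to 3476 and naive samples 23732 to 24602. In sorted bulk RNA, more cells of a type and more RNA per cell cannot be told apart.

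No marker of another cell type passed the test with all 9 samples, and the part of these cells in the values above was not tested. Of 15 tested inflammatory monocyte genes, 10 had a higher mean, with a median of 0.16 (-0.0079 without vehicle sample 1 to 0.24 without vehicle sample 3) and *Ly6c2* at 185, 303 and 325 RPKM in vehicle and 229 to 338 in peptide samples. All 11 tested neutrophil genes had a lower mean, 1 at an unadjusted p under 0.05 (5% of all genes), with a median of -0.29 (-0.60 without vehicle sample 3 to -0.053 without vehicle sample 1). The neutrophil medians were -0.10 for 7aaRGD and -0.54 for 7aaRAE, and their summed level was 139 to 284 RPKM with vehicle and 128 to 222 with peptide, with *Ly6g* near 0. Of 11 tested genes of border-associated macrophages, 3 had a higher mean, and the median was -0.41 (-0.53 without vehicle sample 3 to 0.049 without vehicle sample 1), so that its sign rested on vehicle sample 1. T and NK cell genes had a higher mean in 11 of 12 tested, with a median of 0.38 (0.15 with a pseudocount of 5 to 0.60 without vehicle sample 2), and varied widely within each group, with *Gzmb* at 3.04, 8.85 and 6.77 RPKM in vehicle, 20.3, 12.7 and 7.57 in 7aaRGD and 3.16, 9.19 and 8.37 in 7aaRAE samples and with *Cd3e* and *Ncr1* at or below 1.04 RPKM. Of the T and NK cell genes, *Cd4*, *Ifng*, *Klrb1c* and *Tbx21* had means of only 1.20, 1.20, 1.03 and 1.12 RPKM over the 9 samples. As 6 of the 9 were peptide samples, genes this near the filter passed more readily when higher with peptide. Of 14 dendritic cell genes tested, 12 had a higher mean at a median of 0.13 (0.075 with a pseudocount of 5 to 0.16 without vehicle sample 3). Among these 12, *Zbtb46* was likewise near the filter, at a mean of 1.08 RPKM over the 9 samples. Oligodendrocyte lineage genes had a higher mean in 7 of 8 tested, 4 at an unadjusted p under 0.05 (7.27% of all genes), with a median of 0.38 (0.14 with a pseudocount of 5 to 0.64 with a pseudocount of 0.1) and *Sox10* at 2.04, 1.86 and 2.83 RPKM in vehicle, 4.97, 5.64 and 4.17 in 7aaRGD and 3.25, 2.58 and 2.18 in 7aaRAE samples, against at most 0.199 in naive samples. In the oligodendrocyte list, *Cspg4* was likewise near the filter, at a mean of 1.06 RPKM over the 9 samples. The astrocyte, endothelial and B cell lists had medians of -0.021 (-0.28 to 0.13), -0.41 (-0.76 to -0.075) and -0.32 (-0.54 to -0.13) over 6, 3 and 2 tested genes, and the neuron list held 1 tested gene, *Tubb3*, at 0.56.

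Genes of antigen presentation and lysosomal degradation had, for the most part, lower means. In the lysosome list 5 of 26 members had a higher mean, and 0 were higher and 5 lower at an unadjusted p under 0.05 (5% of all genes were lower), with a median of -0.086 (-0.15 without vehicle sample 3 to -0.039 without vehicle sample 1). *Ctss*, the cathepsin that trims the class II invariant chain, gave 5946, 6631 and 6069.9 RPKM with vehicle, 5179.6, 4638 and 5577 with 7aaRGD and 5473, 5327 and 5895 with 7aaRAE, all peptide samples below the lowest vehicle sample, at a log2 difference of -0.22 (SE 0.079). *Ctsb* had a difference of -0.23 while *Ctsd* was at 0.23, the opposite direction. For MHC class II, 10 of 12 members had a lower mean and the median was -0.091 (-0.16 without vehicle sample 1 to -0.061 without vehicle sample 2). *Cd74*, the invariant chain, gave 8893, 9818 and 9639.9 RPKM with vehicle and 7806 to 9602 with peptide, and *H2-Aa* gave 1572, 1719.7 and 1741 and 1345 to 1712. For MHC class I, 10 of 21 genes had a higher mean, 0 had an unadjusted p under 0.05 and the median was -0.0032 (-0.13 without vehicle sample 1 to 0.052 without vehicle sample 2). Of 18 complement and Fc receptor genes, 15 had a lower mean, 4 at p under 0.05 (5% of all genes), with a median of -0.098 (-0.17 without vehicle sample 3 to -0.060 without vehicle sample 1). *Fcgr4*, an activating receptor for IgG, gave 347, 386 and 420.2 RPKM with vehicle, 287, 289 and 284 with 7aaRGD and 343, 319 and 270.4 with 7aaRAE, without overlap.

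Co-stimulatory and checkpoint genes had higher means in 16 of 19 tested members, 5 higher and 1 lower (*Pdcd1lg2*) at an unadjusted p under 0.05 (7.27% and 5% of all genes), with a median of 0.14 (0.057 at a mean of at least 5 RPKM to 0.32 without vehicle sample 3). *Cd80*, which engages CD28 on T cells, gave 6.06, 4.5 and 6.62 RPKM with vehicle, 8.9, 10.3 and 9.16 with 7aaRGD and 8.32, 8.41 and 5.55 with 7aaRAE, so that 5 of 6 peptide samples exceeded all vehicle samples. *Lag3* gave 96.2, 62.9 and 64.1 RPKM with vehicle and 82.7 to 133 with peptide, and naive samples held 322 RPKM on average. *Cd86* and *Icosl* were at 0.24 and 0.23. Among the members with a higher mean, *Tigit* was at the filter, with a mean of 1.00 RPKM over the 9 samples. With 6 of the 9 being peptide samples, such a gene passed more readily for being higher with peptide.

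**Figure D4:**
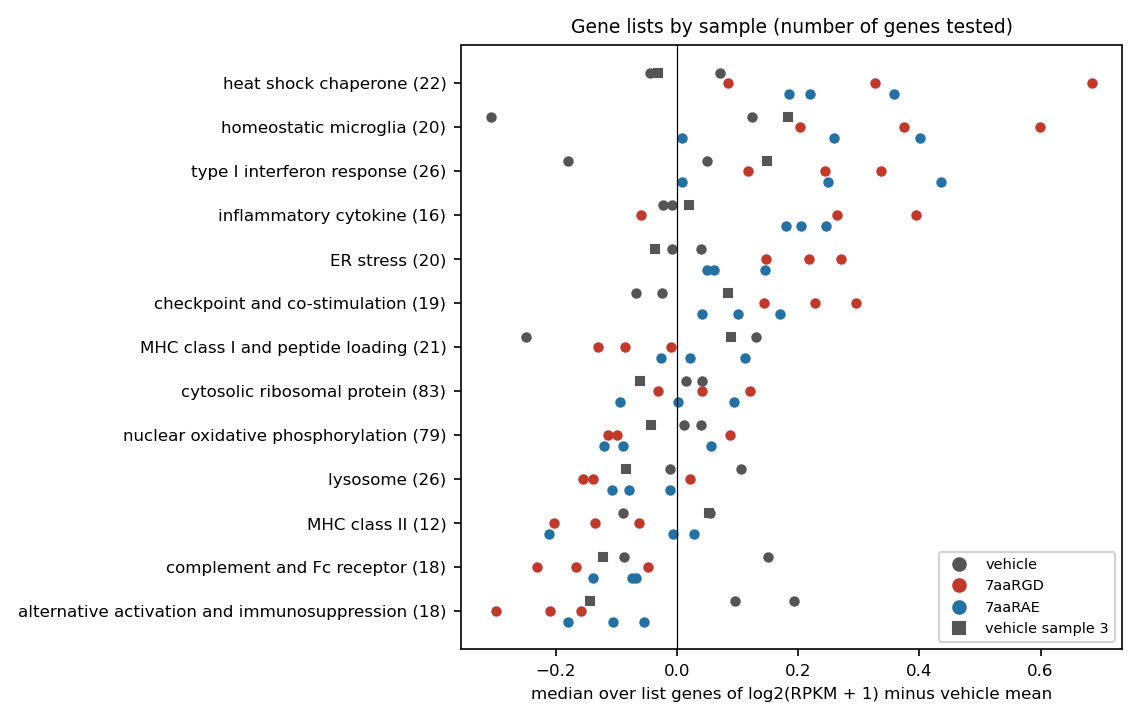
Median, over the tested genes of each of 13 lists, of log2(RPKM + 1) minus the vehicle mean in every sample, with vehicle sample 3 as a square. The chaperone medians reach 0.68 in 7aaRGD sample 2, and those of the alternative activation list lie at 0.095, 0.19 and -0.14 in vehicle samples 1 to 3.

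Of 20 tested genes of tissue remodeling, 12 had a higher mean (55.6% of all genes), and 3 were higher and 4 lower at an unadjusted p under 0.05 (7.27% and 5% of all genes). The median was 0.017 (-0.17 without vehicle sample 3 to 0.13 without vehicle sample 1). *Timp1*, an inhibitor of matrix metalloproteinases, gave 24.1, 22.2 and 20.5 RPKM with vehicle, 16.4, 17.7 and 11.3 with 7aaRGD and 9.28, 13.6 and 14.7 with 7aaRAE, at a log2 difference of -0.68 (SE 0.17) and without overlap, whereas *Mmp2* lay above vehicle as described. *Pdgfb*, a growth factor for pericytes, gave 12.1 to 17.6 RPKM with vehicle and 18.6 to 23.6 with peptide, against a naive mean of 98.9. In the list of lipid-handling phagocytes, with 19 genes tested, *Axl* and *Cd9* lay above vehicle and *Lgals3* below it without overlap (2.79% and 1.64% of all genes). The median was 0.028 (-0.073 without vehicle sample 3 to 0.18 without vehicle sample 1). *Ch25h*, which makes 25-hydroxycholesterol, and *Fabp5*, a fatty acid carrier, had log2 differences of 0.87 (SE 0.25) and -0.72 (SE 0.26).

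None of the receptor genes that the RGD motif addresses passed the test. Of 9 RGD-binding integrin subunits 5 were tested, all with higher means and none at an unadjusted p under 0.05. *Itgav* (αv) gave 12.6, 10.8 and 12.3 RPKM with vehicle and 10.6 to 12.7 with peptide, a log2 difference of 0.011 with a 95% CI of -0.14 to 0.16. *Itgb3* was at 0.25 (95% CI -0.11 to 0.61) and *Itgb5* at 0.21 (95% CI -0.0037 to 0.42). The naive means of the 3 subunits, 32.8, 27.1 and 897 RPKM, were above all 9 tumor samples. Of 17 ligands 7 were tested, 5 with a higher mean. *Spp1* (osteopontin) gave 142, 65.4 and 77.2 RPKM with vehicle, 172, 194 and 213 with 7aaRGD and 90.4, 172 and 105 with 7aaRAE, at a log2 difference of 0.74 (SE 0.31), and *Mfge8* was at -0.18. The leukocyte integrin list had 6 of 9 tested members higher (median 0.20, 0.078 to 0.22 over the alternatives). The list of integrin signaling and focal adhesion had 10 of 18 higher (median 0.0057, -0.017 to 0.026 over the alternatives). Of these 18, 0 were higher and 2 lower at an unadjusted p under 0.05 (7.27% and 5% of all genes).

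The remaining lists held housekeeping, metabolic and stress genes. Their medians follow with the lowest and highest over the alternatives in parentheses. Cytosolic ribosomal protein genes had a median of 0.021 (-0.011 to 0.044), with 62 of 83 higher. Nuclear genes of oxidative phosphorylation had one of -0.040 (-0.074 to -0.026), with 14 of 79 higher and 6 lower at an unadjusted p under 0.05 (5% of all genes). Glycolysis and hypoxia genes, with 8 of 27 higher, had a median of -0.038 (-0.10 to 0.015). The median was 0.020 (-0.061 to 0.16) for replication and mitosis, 0.026 (-0.028 to 0.073) for NRF2 and iron genes and -0.0041 (-0.018 to 0.056) for sterol synthesis. It was 0.019 (-0.11 to 0.087) for immediate early genes and 0.018 (-0.044 to 0.076) for clock genes. For arginine and itaconate metabolism it was -0.081 (-0.10 at a mean of at least 5 RPKM to 0.089 without vehicle sample 3), turning with vehicle sample 3, and for glucocorticoid-responsive genes -0.24 (-0.32 without vehicle sample 3 to -0.089 without vehicle sample 1). In the last of these, *Cdkn1a* stood against the list, at 106, 109 and 106 RPKM with vehicle and 121 to 162 with peptide.

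The peptides were next compared with each other at the same dose and time. Of 9440 genes, 0 (0%) differed between 7aaRGD and 7aaRAE at an adjusted p under 0.05 in limma, and 520 (5.51%) had an unadjusted p under 0.05. The smallest adjusted p, 0.148, was shared by *Adamts1*, *Saa3*, *Fads2*, *Fasn* and *Clu*, which were picked out here for their values. *Saa3*, an acute-phase protein, gave 11, 16 and 12.1 RPKM with vehicle, 9.28, 8.4 and 8.95 with 7aaRGD and 18.1, 15 and 19.9 with 7aaRAE. *Fasn* (fatty acid synthase) gave 5.44, 5.66 and 5.41 RPKM with vehicle, 7.9, 8.56 and 7.45 with 7aaRGD and 6.08, 5.74 and 5.73 with 7aaRAE. The matrix protease gene *Adamts1* gave 1.42, 0.974 and 1.08 RPKM with vehicle, 2.54, 2.78 and 2.38 with 7aaRGD and 1.24, 1.42 and 1.39 with 7aaRAE. In *Fasn* and *Adamts1* the 7aaRGD samples lay above both other groups, while in *Saa3* they lay below both. *Ttr*, a product of the choroid plexus, had a difference of 1.69 (95% CI 1.03 to 2.35) and varied between 22.2 and 318 RPKM in naive samples.

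For the genes that lead the pooled comparison, the intervals of the difference between the peptides were as follows. The 7aaRGD minus 7aaRAE difference was 0.064 (95% CI -0.15 to 0.27) for *Nlrp3*, 0.035 (95% CI -0.11 to 0.18) for *Lgals3* and -0.0070 (95% CI -0.21 to 0.19) for *Cpne2*. It was -0.83 (95% CI -2.09 to 0.44) for *Arg1* and -0.0087 (95% CI -1.15 to 1.13) for *Chil3*, where the spread within groups was wide. The differences from vehicle, which both peptides share as control, stood side by side at 1.19 for 7aaRGD and 0.59 for 7aaRAE in *Fcrls*, 1.09 for 7aaRGD and 0.39 for 7aaRAE in *Spp1* and 0.65 for 7aaRGD and 0.32 for 7aaRAE in *Cd80*. The list medians were 0.35 for 7aaRGD and 0.23 for 7aaRAE in chaperones, 0.22 and 0.23 in interferon genes, and 0.36 and 0.21 in microglial genes. An absence of adjusted calls between the peptides does not show that they act alike.

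Other experiments of the series allowed the same genes to be read in samples that the comparison had not used. In athymic nude mice with human U87-MG gliomas (3 vehicle and 6 peptide samples, 21 DPI), 0 of 9664 genes passed and 674 (6.97%) had an unadjusted p under 0.05. Of the 12 genes leading upwards, 10 were tested there, and 3 had a higher mean with peptide. Of the 12 leading downwards, 10 were tested, 2 had a lower mean, and 4, among them *Srgn*, *P2ry2* and *Frat1*, were higher with peptide at an unadjusted p under 0.05. Over all genes there, 49.3% had a higher mean at a median of -0.0026. The interferon list had a higher mean in 2 of 27 genes (median -0.38), the microglial list in 2 of 20 (median -0.25) and the chaperone list in 12 of 24. The alternative activation genes *Chil3* and *Mrc1* were at -0.31 (SE 0.50) and -0.33 (SE 0.32) there, and 6 of 12 tested genes of that list had a higher mean. Of the 46 genes past the threshold without vehicle sample 3, 34 were tested in U87-MG, 12 had the same direction, and at an unadjusted p under 0.05 1 had the same and 3 the opposite direction.

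At 28 DPI, CD11b+ cells of single mice given 7aaRGD were compared with vehicle (4 samples each). The sources used here differ on the mouse strain of this experiment. The sample titles name nude mice, whereas the authors describe GL261 gliomas in C57BL/6 mice. Per the authors, the animals of both groups also received control IgG by intraperitoneal injection. In this comparison 0 of 9716 genes passed, with 1229 (12.6%) at an unadjusted p under 0.05. The 12 genes leading downwards were all tested, 11 had a lower mean and 2 of these (*Lgals3* and *Tnfrsf26*) had an unadjusted p under 0.05, while 6 of 10 leading upwards had a higher mean. *Lgals3* was at -0.35 (SE 0.12) and *Tnfrsf26* at -0.45 (SE 0.19). Of the 46 genes past the threshold without vehicle sample 3, 29 of 43 had the same direction, 5 of them at an unadjusted p under 0.05 and 0 opposite at that level. Over all genes 54.3% had a higher mean at a median of 0.014. Of the lists, the microglial genes had a higher mean in 20 of 20 (median 0.38), the interferon genes in 25 of 26 (median 0.20) and the chaperones in 18 of 23 (median 0.067). MHC class II had 3 of 11 higher. Other lists did not keep their 21 DPI pattern. Complement and Fc receptor genes had 13 of 18 higher, lysosome genes 17 of 26 and border-associated macrophage genes 7 of 11. Inflammatory cytokine genes had 6 of 14 higher, and co-stimulatory and checkpoint genes 9 of 17. *Arg1* and *Chil3* were at -0.21 (SE 0.39) and 0.37 (SE 0.63), and 6 of 17 tested genes of the alternative activation list had a higher mean (median -0.058).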

How the data were processed

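RNA of CD11b+ cells sorted from 2 pooled hemispheres per sample was made into stranded, poly(A)-selected libraries. Per the authors, trimming was by Trimmomatic, alignment to mm10 by STAR, counting per gene by HTSeq 0.11.1 and normalization by NOISeq. The deposited values were read as RPKM plus a constant of 2, a reading that comes from the values and is not given in the sources used here. The constant was subtracted, and values slightly below 0 that this left were kept. Gene positions are those of GENCODE vM21. In the 28 DPI table, 6 further columns were not used.

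The 6 peptide and 3 vehicle samples were compared after adding 1 RPKM and taking log2. The limma package (3.58.1, R 4.3.3) was used with a mean-variance trend and Benjamini-Hochberg adjustment, and genes under a mean of 1 RPKM were left out. The p-values measure the spread between these pooled samples. Deviations of the GL261 samples from their group means spanned 7 of 8 possible dimensions, so SEs and p-values may rest on 1 degree of freedom too many, and with 1 less 0 genes passed. Sequencing depth is unknown, so no counting interval was computed. Because 0 genes passed, the named genes were the 12 on each side with the smallest unadjusted p among those without overlap between groups, up to 4 members of each list with the largest absolute log2 difference at a mean of at least 5 RPKM, and a fixed group of myeloid and integrin genes. Other list members, the genes past the threshold without vehicle sample 3 and those compared between the peptides were named after their values were seen. The lists and the comparison were chosen with earlier results of these data known. Alternatives covered the pseudocount, the filter, the scaling, the model, each left-out sample and a replicate block. Counts without overlap under other filters and scalings, and list values without vehicle sample 3, were added after seeing the data. Results of some genes are not reported here.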

Additional observations from a re-analysis of the deposited data

Results flagged for a closer look

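*Cd80* in 7aaRAE sample 3 lay apart from the other 5 peptide samples, at 5.55 RPKM, with a gap of 0.646 of the range of the 6 samples, past the 95% critical value of Dixon's test. Chance gives such a gap in about 1 of 20 groups, and 41 genes were examined. *Frat1*, lower with peptide in every GL261 sample, was higher with peptide in every sample of the U87-MG experiment, by 0.35 on the log2 scale, and the difference between the experiments was not tested.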

How the results depend on the processing

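The counts of 0 higher and 0 lower genes held in limma under every alternative but 1. Without vehicle sample 3 they were 7 and 39, so that leaving out 1 sample gave 0 to 7 higher and 0 to 39 lower genes. Between the peptides, 7 genes passed with no filter, and 0 to 2 with 1 sample left out. Genes without overlap numbered 418 above vehicle with no filter and 149 at a mean of at least 5 RPKM, and below vehicle 97 at that filter and 243 with median-of-ratios scaling. The log2 fold change of Itgav turned to -0.0024 with median-of-ratios scaling and ran from -0.050 to 0.052 with 1 sample left out, and the log2 fold change of Itgam from -0.0068 to 0.15. Of 574 alternatives over 41 named genes, 562 kept direction and side of the threshold, and 6 passed it, all without vehicle sample 3. Of 506 list medians, 34 moved beyond the spread between replicates, and the neuron list had no value at a mean of at least 5 RPKM. With the replicate number as a block, 0 genes were higher and 0 lower. Correlations between the deviations of same-numbered samples ran from -0.77 to 0.12, with 1 of 9 pairs over 0.1, so the samples were not treated as paired. This count could not show pairing if the deposited values had already been adjusted for it, which was not tested. With 3 samples per group, this does not settle whether same-numbered samples were paired or shared a batch. Depth is unknown, and 2 of 3 vehicle samples carry the alternative activation values.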
